A study of Homo sapiens with 4 samples.

Results

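Small nucleolar RNA host genes carry small nucleolar RNAs (snoRNAs) inside their introns. They were taken as every row of the count table whose symbol is SNHG followed by a number, together with GAS5, ZFAS1, EPB41L4A-AS1, DANCR, TAF1D and CCAR1. This gave 28 of 57992 rows. In the annotation, 26 of them are non-coding and 2, TAF1D and CCAR1, are protein-coding. A row of the table for a snoRNA or for a Cajal body RNA, the related guide RNA of another nuclear body, lies within 27 of the 28 genes on the same strand. GAS5 is the exception. Its snoRNAs were not analysed here.

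RNA was sequenced from 4 libraries of MOLM13, an established human acute myeloid leukaemia line, in a derivative labelled VEN-R for its resistance to venetoclax, an inhibitor of BCL2. Doxycycline was given in all 4. It induced a short hairpin RNA (shRNA) against PRMT9, a protein arginine methyltransferase, in 2 libraries (genotype labelled PRMT9 knockdown), and a control shRNA in the other 2 (genotype labelled WT). The labels do not say how many hairpin sequences were used or whether the numbered libraries are separate cultures, and cells that were not VEN-R or had no doxycycline were not analysed here.

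Splicing of a host transcript frees the intron, and the snoRNA is trimmed out of it and packed with its core proteins. Box C/D snoRNAs guide ribose methylation and box H/ACA snoRNAs guide pseudouridylation, mainly of ribosomal RNA. The spliced exons of many SNHG genes hold only short reading frames and are known substrates of nonsense-mediated decay, and several start, like mRNAs of ribosomal proteins, with a 5′ terminal oligopyrimidine (TOP) tract, through which mTOR signalling controls their translation and stability.

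The libraries held 30764403 and 33845172 reads assigned to genes with the PRMT9 shRNA and 30329901 and 28592902 with the control shRNA. PRMT9 itself had 81 and 78 reads in the PRMT9 shRNA libraries, against 398 and 406 in the control shRNA libraries, a log2 fold change of -2.48 ± 0.12 (SE; edgeR quasi-likelihood test, Benjamini-Hochberg adjusted p = 5.24e-13). The 28 host genes took 0.211% and 0.209% of all reads in the PRMT9 shRNA libraries, against 0.218% and 0.220% in the control shRNA libraries. In bulk RNA of this kind, fewer cells of a type and less RNA per cell cannot be told apart. Of 10 markers of leukaemic myeloid cells, 9 rose and 1 (MPO) fell at an adjusted p below 0.05, where 33.4% of all 15193 genes tested rose and 34.5% fell. Their summed level was 2176 to 2178 CPM (counts per 1000000 reads assigned to genes, scaled by TMM factors) with the PRMT9 shRNA and 1619.9 to 1626 CPM with the control shRNA. Of 5 epithelial and stromal markers, which summed to 24.9 to 26.5 CPM with the PRMT9 shRNA and 22.2 to 22.9 CPM with the control shRNA, EPCAM and KRT19 had 0 reads in every library. Nearly all of that sum was KRT18, at 25.2 ± 1.3 CPM with the PRMT9 shRNA and 22.2 ± 0.41 CPM with the control shRNA (SD, n = 2 each). KRT18 rose by 0.18 on the log2 scale (edgeR adjusted p = 0.0138), a call lost without the first PRMT9 shRNA library (0.153), without the first control library (0.0679) and with DESeq2 (0.132). COL1A1 and COL1A2 stayed below 0.5 CPM on average in both groups. All 4 erythroid markers had 0 reads in every library, and 5 lymphoid markers summed to 0.68 to 0.74 CPM with the PRMT9 shRNA and 0.56 to 0.71 CPM with the control shRNA. The part of the myeloid and KRT18 differences in the host gene results was not tested.

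Of 23 host genes with enough reads to test, 13 (56.5%) have at least 1 annotated transcript that starts with C followed by 4 or more pyrimidines (C or T). The same start was found in 15.3% of 15140 tested genes with GENCODE 29 transcripts, in 6.19% of 1858 other long non-coding and antisense genes, in 27.1% of 199 protein-coding snoRNA host genes and in 83.5% of 79 genes of cytosolic ribosomal proteins. Genes with more annotated transcripts have more chances to hold such a start, and the median number of transcripts was 9 for the host genes, 6 for all genes, 1 for the other long non-coding genes, 11 for the protein-coding hosts and 9 for the ribosomal protein genes. The first 30 bases of 6 such transcripts are shown because genes that rose, fell or were not called share this start. They were read 5′ to 3′ from the GENCODE 29 transcripts (GRCh38), with the leading pyrimidine run in capitals: GAS5 (chr1:173867960-173867989, minus strand) and SNHG8 (chr4:118278758-118278787, plus strand), which rose, SNHG5 (chr6:85678704-85678733, minus strand), which was not called, and SNHG3 (chr1:28506043-28506072, plus strand), SNHG4 (chr5:139274102-139274131, plus strand) and SNHG12 (chr1:28581844-28581873, minus strand), which fell.
GAS5: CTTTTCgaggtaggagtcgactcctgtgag
SNHG8: CTTTCacattcgggaagcgtcgggattagg
SNHG5: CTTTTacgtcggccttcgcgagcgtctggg
SNHG3: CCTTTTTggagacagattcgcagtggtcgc
SNHG4: CCTTTCCCCTCCggcctctgccggtgctgc
SNHG12: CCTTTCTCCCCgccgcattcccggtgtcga
The runs were 5 to 7 bases in GAS5, SNHG8, SNHG5 and SNHG3, 11 in SNHG12 and 12 in SNHG4. A pyrimidine run at an annotated start is a description of these letters, and the start used in these cells was not measured.

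With the PRMT9 shRNA, 5 of the 23 tested host genes rose (EPB41L4A-AS1, SNHG8, GAS5, SNHG14 and SNHG6) and 11 fell (DANCR, SNHG4, SNHG9, SNHG3, SNHG10, SNHG12, SNHG17, SNHG1, CCAR1, TAF1D and SNHG16), at an adjusted p below 0.05 over all 15193 genes tested. The other 7 were not called. The 16 called genes are 69.6% of those tested, close to the share over all genes, where 67.9% were called. Rises made up 21.7% of the host genes and 33.4% of all genes, and falls made up 47.8% of the host genes and 34.5% of all genes. The median log2 fold change was -0.21 over the host genes and 0.00 over all genes, and the median absolute change was 0.31 over the host genes and 0.40 over all genes. The libraries of the 2 groups did not overlap in 17 of the 23 host genes, where 83.3% of all genes tested had no overlap. Among the 18 host genes with a mean of 10 CPM or more, 5 rose, 9 fell and 4 were not called, with a median of -0.06.

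**Figure D1:**
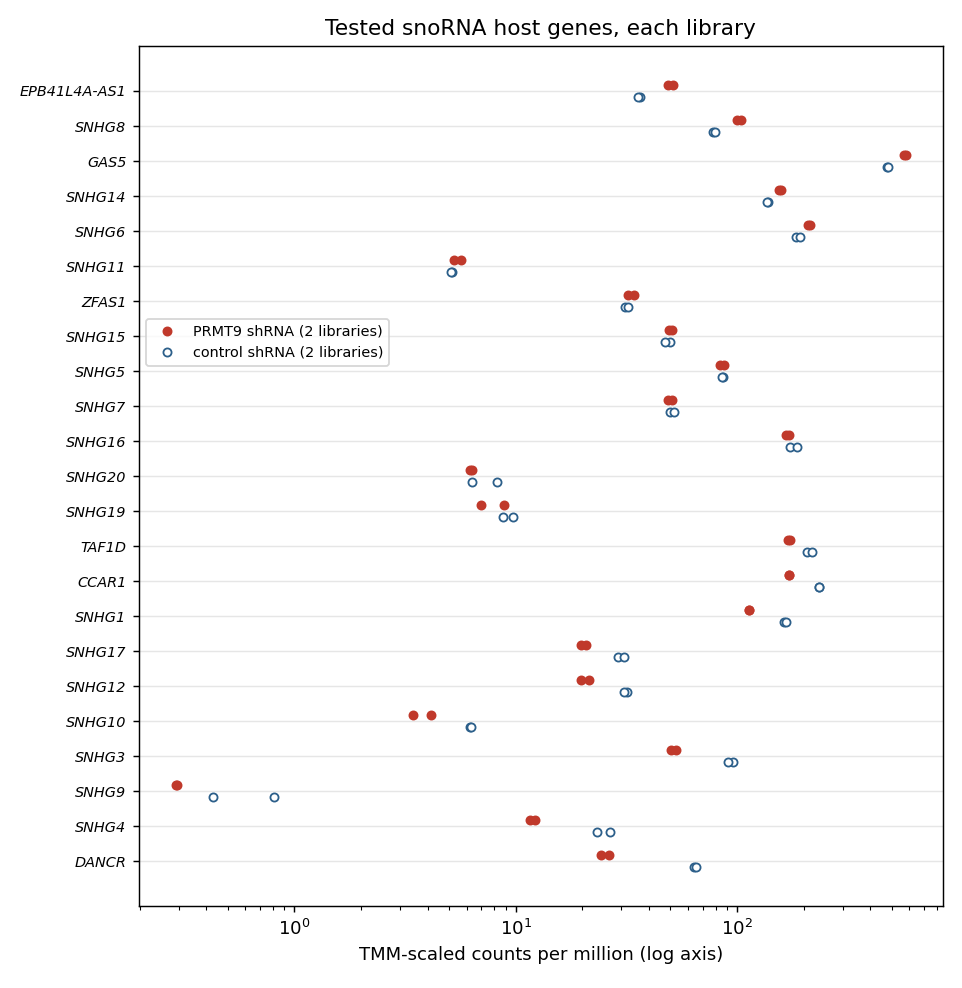
Scaled CPM (log axis) of the 23 tested host genes in each library, ordered by log2 fold change, with the 2 PRMT9 shRNA libraries as filled points above the 2 control shRNA libraries as open points. DANCR, at the bottom, had 24.4 and 26.5 CPM against 64.1 and 65.3 CPM, and the filled points lie right of the open ones in EPB41L4A-AS1, SNHG8, GAS5, SNHG14 and SNHG6 at the top.

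Hosts of box H/ACA snoRNAs held both ends of the range. Of 10 tested, 2 rose, 5 fell and 3 were not called, where 33.4% of all genes tested rose and 34.5% fell. SNHG9, among the falls, passed the filter through the control libraries only. The median of the 10 was -0.30 on the log2 scale. Values below are CPM in libraries 1 and 2 of each group. DANCR (chr4:52712404-52720351, plus strand) is a long non-coding RNA known for keeping progenitor cells undifferentiated, and it carries SNORA26. It had 24.4 and 26.5 CPM in the PRMT9 shRNA libraries, against 64.1 and 65.3 CPM in the control shRNA libraries. Both PRMT9 shRNA libraries lay far below both controls. This was a log2 fold change of -1.35 ± 0.05 (SE; 95% interval -1.45 to -1.24; edgeR adjusted p = 1.08e-14), a 2.54-fold lower level and the largest fall among the tested host genes.

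SNHG4 (chr5:139274102-139283244, plus strand) carries SNORA74A and shares its start region with MATR3, the gene of a nuclear matrix protein. Its level was 12.2 and 11.6 CPM with the PRMT9 shRNA and 26.7 and 23.2 CPM with the control shRNA. The groups did not overlap, with a log2 fold change of -1.07 ± 0.08 (SE; edgeR adjusted p = 4.75e-10). The MATR3 row on the same strand shares 626 exon bases with SNHG4 and fell as well, by 0.88 on the log2 scale (edgeR adjusted p = 6.27e-06). That row was low, with an average of 6.73 CPM with the PRMT9 shRNA and 12.3 CPM with the control shRNA, below SNHG4 itself. Of the 50-base windows of SNHG4 transcripts, 15.2% also occur in transcripts of other genes, so the split of reads between the 2 rows is uncertain. Shared bases and windows were taken from GENCODE 29, where SNHG4 has 4469 exon bases. The counted SNHG4 has 1926, so its overlap with MATR3 in the counting is not known.

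SNHG3 (chr1:28505980-28510892, plus strand) is the host of SNORA73A and SNORA73B, the U17 snoRNAs known for a role in processing of ribosomal RNA rather than in its modification. It had 53.0 and 50.6 CPM in the PRMT9 shRNA libraries, against 96.2 and 90.6 CPM in the control shRNA libraries, a log2 fold change of -0.85 ± 0.04 (SE; edgeR adjusted p = 3.81e-13). The groups stood well apart. RCC1, the exchange factor of the GTPase Ran, lies on the same strand with 242 shared exon bases, and it fell by 0.61 on the log2 scale (edgeR adjusted p = 2.75e-13).

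SNHG17 (chr20:38420588-38435353, minus strand) carries 5 box H/ACA rows, all of the SNORA71 family. Its level was 19.8 and 20.8 CPM with the PRMT9 shRNA and 29 and 31.0 CPM with the control shRNA. Here too both PRMT9 shRNA libraries were below both controls, with a log2 fold change of -0.56 ± 0.06 (SE; edgeR adjusted p = 8.61e-08). SNHG9, the host of SNORA78, had only 9 and 10 reads in the PRMT9 shRNA libraries, against 13 and 23 reads in the control shRNA libraries. It passed the filter through the control libraries only, which alone favours a fall. The fitted log2 fold change of SNHG9 was -1.06 ± 0.46 (SE; edgeR adjusted p = 0.0491), and the call was lost in 13 of 15 other settings, over which the adjusted p ran between 0.0110 and 0.430. Without the second control library it stood at -0.53.

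The 2 rises among the H/ACA hosts were in EPB41L4A-AS1 and SNHG8. EPB41L4A-AS1 (chr5:112160526-112164276, plus strand), a non-coding RNA that carries SNORA13, had 51.3 and 48.7 CPM in the PRMT9 shRNA libraries, against 36.6 and 35.6 CPM in the control shRNA libraries. Its log2 fold change of 0.47 ± 0.05 was the largest rise of the tested host genes (SE; edgeR adjusted p = 3.54e-08). SNHG8 (chr4:118278709-118279823, plus strand), the host of SNORA24, had 104 and 99.5 CPM with the PRMT9 shRNA and 78.1 and 79.5 CPM with the control shRNA. The groups were apart in both genes. SNHG8 rose by 0.37 ± 0.03 on the log2 scale (SE; edgeR adjusted p = 7.80e-09).

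SNHG7, SNHG15 and SNHG11 were the H/ACA hosts that were not called. SNHG7, the host of SNORA17A and SNORA17B, had 50.6 and 48.5 CPM with the PRMT9 shRNA and 49.7 and 52.1 CPM with the control shRNA, and its 95% interval on the log2 scale ran from -0.13 to 0.06. SNHG15, the host of SNORA9, had 49.0 and 50.9 CPM with the PRMT9 shRNA and 49.5 and 47.1 CPM with the control shRNA, with an interval from -0.05 to 0.14. The groups overlapped in both genes. SNHG11 had 5.24 and 5.66 CPM with the PRMT9 shRNA and 5.16 and 5.08 CPM with the control shRNA, and its interval of -0.17 to 0.35 leaves room for a change in either direction.

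Hosts of box C/D snoRNAs spanned log2 fold changes from -0.54 to 0.19. Of 8 tested, 2 rose, 3 fell and 3 were not called, where 33.4% of all genes tested rose and 34.5% fell. The median of the 8 was -0.04 on the log2 scale. SNHG1 (chr11:62851988-62855914, minus strand) holds 7 box C/D rows, among them SNORD22, and is the gene from which the idea of a non-coding host came. It had 114 CPM in each PRMT9 shRNA library, against 163 and 167 CPM in the control shRNA libraries. The libraries within a group were nearly alike and the groups far apart, with a log2 fold change of -0.54 ± 0.03 (SE; edgeR adjusted p = 1.34e-12). SNHG16 (chr17:76557766-76565348, plus strand), the host of the SNORD1 family, had 171 and 167 CPM with the PRMT9 shRNA and 173 and 186 CPM with the control shRNA. Its fall of 0.08 on the log2 scale (SE 0.03, edgeR adjusted p = 0.0226) was small, and the call was lost in 9 of 16 other settings. With DESeq2 the adjusted p was 0.130. The log2 fold change of SNHG16 was -0.02 without the second control library and -0.07 without the second PRMT9 shRNA library. It became 0.0039 with upper-quartile scaling.

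CCAR1 (chr10:68721012-68792377, plus strand) is a protein-coding host of SNORD98 and encodes a coactivator of transcription that takes part in control of cell cycle and apoptosis. It had 172 CPM in each PRMT9 shRNA library, against 235 CPM in each control shRNA library. The spread within each group was below 0.4 CPM (SD 0.32 with the PRMT9 shRNA and 0.34 with the control shRNA), with a log2 fold change of -0.45 ± 0.02 (SE; edgeR adjusted p = 2.56e-12).

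SNHG6 and SNHG14 were the C/D hosts that rose. SNHG6, the host of SNORD87, had 213 and 209 CPM with the PRMT9 shRNA and 184 and 193 CPM with the control shRNA, a log2 fold change of 0.16 ± 0.03 (SE; edgeR adjusted p = 1.62e-05). SNHG14 (chr15:24978583-25419462, plus strand) is the very long paternally expressed transcript of the Prader-Willi region, which holds the SNORD115 and SNORD116 clusters and runs antisense to UBE3A, the ubiquitin ligase gene of Angelman syndrome. It had 155 and 158 CPM in the PRMT9 shRNA libraries, against 138 and 137 CPM in the control shRNA libraries. Both groups were tight and apart, with a log2 fold change of 0.19 ± 0.03 (SE; edgeR adjusted p = 2.84e-06).

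UBE3A, with 198 exon bases shared with SNHG14 on the opposite strand, fell. It had 123 and 114 CPM with the PRMT9 shRNA and 168 and 176 CPM with the control shRNA, a log2 fold change of -0.54 ± 0.03 (SE; edgeR adjusted p = 1.86e-10). A link between the rise of SNHG14 and the fall of UBE3A was not tested. SNRPN, a same-strand gene of that region that codes for a splicing protein, shares 141 exon bases with SNHG14 and rose by 0.47 (SE 0.19; edgeR adjusted p = 0.0362) with an average of 3.14 CPM with the PRMT9 shRNA and 2.26 CPM with the control shRNA. The calls of SNHG14 and SNHG6 were lost when log2(RPKM + 1) was tested without a filter on low values (adjusted p = 0.0663 and 0.0782).

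SNHG5, ZFAS1 and SNHG19, all C/D hosts, were not called. SNHG5, the host of SNORD50B, had 87.3 and 84.1 CPM with the PRMT9 shRNA and 86.2 and 85.3 CPM with the control shRNA. Its groups overlapped and its 95% interval on the log2 scale was -0.07 to 0.07, the narrowest of the genes not called. ZFAS1, antisense to the start of ZNFX1 and host of SNORD12, SNORD12B and SNORD12C, had 34.1 and 32.1 CPM with the PRMT9 shRNA and 31.3 and 32.1 CPM with the control shRNA, with an interval of -0.05 to 0.17. SNHG19, the host of SNORD60, had 6.98 and 8.90 CPM with the PRMT9 shRNA and 8.73 and 9.74 CPM with the control shRNA. It was called lower only when the second PRMT9 shRNA library was left out (log2 fold change -0.40, adjusted p = 0.0176).

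SNHG12 and TAF1D carry both kinds of snoRNA, and both fell. SNHG12 (chr1:28578538-28582983, minus strand), the host of SNORA44, SNORA61, SNORA16A and SNORD99, had 19.8 and 21.4 CPM in the PRMT9 shRNA libraries, against 31.7 and 30.8 CPM in the control shRNA libraries. It fell by 0.60 ± 0.06 on the log2 scale (SE; edgeR adjusted p = 2.55e-08). TAF1D (chr11:93729948-93784391, minus strand) encodes a subunit of the selectivity factor of RNA polymerase I, the polymerase of ribosomal RNA genes, and carries 8 snoRNA rows. It had 169 and 174 CPM with the PRMT9 shRNA and 208 and 219 CPM with the control shRNA, a log2 fold change of -0.31 ± 0.03 (SE; edgeR adjusted p = 7.29e-09). In both genes the groups were apart.

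Hosts of Cajal body RNAs were low. SNHG10 (chr14:95532297-95534872, minus strand), the host of SCARNA13, had 128 and 116 reads in the PRMT9 shRNA libraries, against 187 and 178 reads in the control shRNA libraries, and fell by 0.72 on the log2 scale (SE 0.14; edgeR adjusted p = 1.12e-04). GLRX5, an iron-sulphur cluster assembly gene on the opposite strand with 391 shared exon bases, fell by 0.68 (SE 0.05; edgeR adjusted p = 4.20e-10). SNHG20, the host of SCARNA16, had 196 and 211 reads with the PRMT9 shRNA and 191 and 234 reads with the control shRNA, so the groups overlapped. Its log2 fold change, -0.21 ± 0.13 (SE; edgeR adjusted p = 0.144), was called only when the first control library was left out (-0.39, adjusted p = 0.00849). Host genes of every kind that were not tested are named here. SNHG21, a host of a Cajal body RNA, and SNHG25, which carries box C/D and box H/ACA rows, had 6 to 18 reads per library. SNHG22, also a host of Cajal body RNAs, and the box C/D hosts SNHG18 and SNHG23 had 0 reads in all 4 libraries.

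GAS5 (chr1:173863900-173868882, minus strand) is the growth arrest-specific transcript, a TOP RNA whose level is known to rise when translation or mTOR is inhibited, and which can bind the glucocorticoid receptor. It had the most reads of all 28 genes, with 579.8 and 568 CPM in the PRMT9 shRNA libraries, against 476 and 481 CPM in the control shRNA libraries. Both groups were tight and apart, with a log2 fold change of 0.26 ± 0.02 (SE; edgeR adjusted p = 9.54e-10), or 1.20-fold. ZBTB37, which lies on the opposite strand with no shared exon base, fell by 0.37 (SE 0.04; edgeR adjusted p = 2.66e-07).

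**Figure D2:**
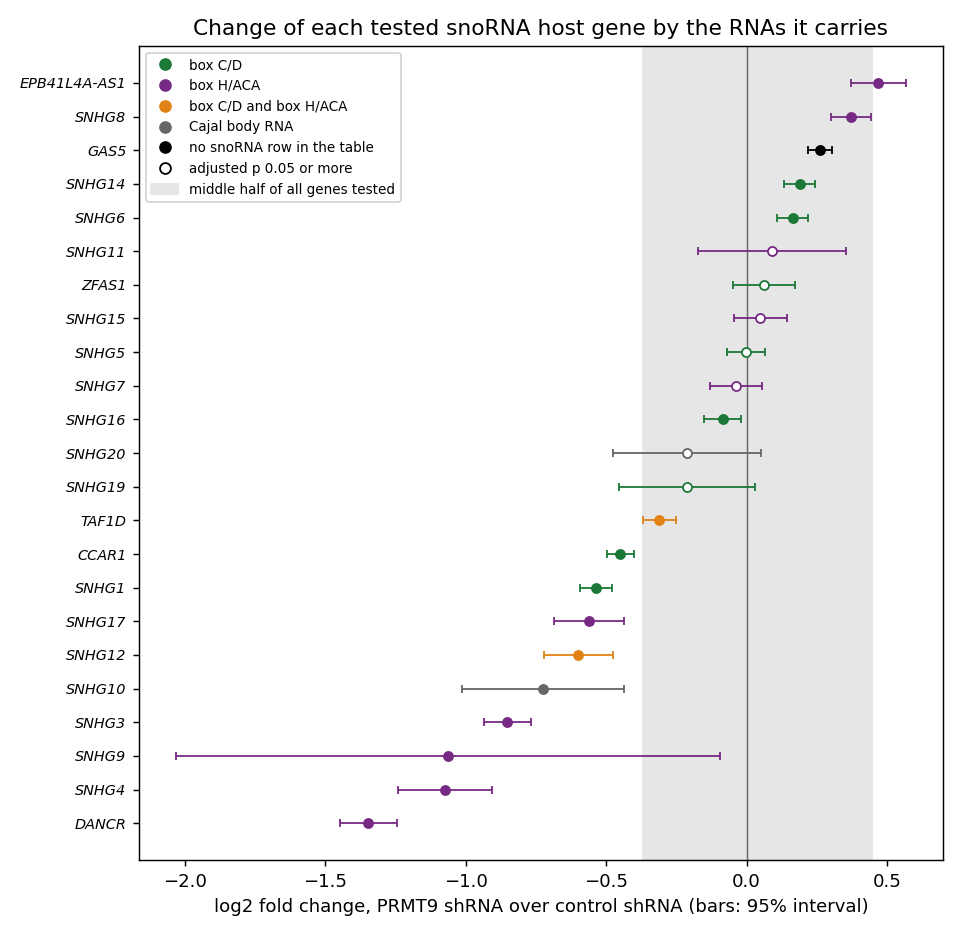
Log2 fold change (PRMT9 shRNA over control shRNA) of the 23 tested host genes with 95% intervals, coloured by the kind of RNA row they hold, with open points for genes at an adjusted p of 0.05 or more and a grey band for the middle 50% of all genes tested. Box H/ACA hosts span the range from DANCR at -1.35 to EPB41L4A-AS1 at 0.47, C/D hosts lie between -0.54 and 0.19, and SNHG16 changes sign with upper-quartile scaling.

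The order of levels per length was led by genes that rose. In the authors' deposited RPKM, SNHG6 averaged 169 ± 1.9 with the PRMT9 shRNA and 151 ± 7.3 with the control shRNA (SD, n = 2 each). GAS5 came next, at 158 ± 2.1 RPKM with the PRMT9 shRNA and 132 ± 3.3 RPKM with the control shRNA. SNHG8 followed, at 110.3 ± 3.6 RPKM with the PRMT9 shRNA and 85.4 ± 2.6 RPKM with the control shRNA. The next gene was SNHG1, at 30.2 RPKM in each PRMT9 shRNA library, against 42.8 and 45.0 RPKM in the control shRNA libraries. CCAR1, SNHG16 and SNHG5 had means over all 4 libraries of 33.6, 32.5 and 30.7 RPKM, and SNHG19, TAF1D, DANCR and SNHG3 at 25.1, 22.8, 19.7 and 17.7 RPKM. SNHG14 ranked high in CPM and had only 4.02 RPKM over its exon length of 36573 bases. With the control shRNA DANCR had 27.7 and 28.9 RPKM, close to SNHG19 at 25.2 and 28.8 RPKM, and with the PRMT9 shRNA it had 10.6 and 11.6 RPKM, below SNHG3 at 12.9 and 12.4 RPKM.

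The table also holds rows for the snoRNAs themselves. Mature snoRNAs carry no poly(A) tail, so a poly(A) library does not measure their level, and reads in these rows could come from unspliced host RNA or from snoRNAs carried over, which cannot be told apart. Of 189 snoRNA and Cajal body RNA rows inside the host genes, 130 of them in SNHG14 and SNHG23, 147 had 0 reads in all 4 libraries. Of 50 rows that lie within an annotated exon of their host 47 had 0 reads, against 95 of 133 rows wholly outside its exons. The exon rows with reads, SNORD116-4, SNORD116-26 and SNORD116-27, all lie in SNHG14. Of the 95 rows, all but SNORD123, SCARNA15 and SNORD60 lie in SNHG14 and SNHG23. How reads that overlap both a host exon and a snoRNA row were counted is not given. Thus 0 reads in an exon row cannot be taken as absence of the snoRNA. In the end 12 rows had enough reads to test. Of these 0 rose and 6 fell at an adjusted p below 0.05, where 33.4% of all genes tested rose and 34.5% fell. SNORD12C and SNORA13 among the falls, and SCARNA13 among the rows not called, passed the filter through the control libraries only, which alone favours a fall. Among 31 tested snoRNA rows outside these host genes 1 rose and 8 fell, and the median was -0.64 on the log2 scale.

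The 6 rows that fell are shown whole because they are the RNAs on which this comparison rests. They were taken 5′ to 3′ from GENCODE 29 (GRCh38), and capitals mark the C box TGATGA and the D box CTGA of box C/D snoRNAs, and the ACA that lies 3 bases before the 3′ end of box H/ACA snoRNAs, as found on the strand of the snoRNA. The box C/D sequences are SNORD6 (chr11:93731502-93731574, minus strand, in TAF1D), SNORD12C (chr20:49278940-49279028, plus strand, in ZFAS1) and SNORD12B (chr20:49280319-49280409, plus strand, in ZFAS1). The box H/ACA sequences are SNORA13 (chr5:112161485-112161617, plus strand, in EPB41L4A-AS1), SNORA26 (chr4:52713249-52713370, plus strand, in DANCR) and SNORA73B (chr1:28508559-28508762, plus strand, in SNHG3).
SNORD6: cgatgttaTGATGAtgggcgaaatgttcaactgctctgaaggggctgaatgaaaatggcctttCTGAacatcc
SNORD12C: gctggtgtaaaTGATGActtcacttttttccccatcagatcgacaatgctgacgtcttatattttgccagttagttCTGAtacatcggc
SNORD12B: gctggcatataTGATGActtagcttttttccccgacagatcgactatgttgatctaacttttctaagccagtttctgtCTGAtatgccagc
SNORA13: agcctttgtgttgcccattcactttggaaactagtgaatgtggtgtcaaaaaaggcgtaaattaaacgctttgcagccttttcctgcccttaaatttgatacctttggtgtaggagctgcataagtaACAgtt
SNORA26: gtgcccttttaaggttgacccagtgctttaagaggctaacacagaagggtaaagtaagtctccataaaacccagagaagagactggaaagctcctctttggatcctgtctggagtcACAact
SNORA73B: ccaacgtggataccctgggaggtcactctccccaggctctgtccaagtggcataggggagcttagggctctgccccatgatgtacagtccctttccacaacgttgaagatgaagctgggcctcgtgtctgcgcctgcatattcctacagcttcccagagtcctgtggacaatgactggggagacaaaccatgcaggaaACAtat
In both SNORD12 copies the C box starts at base 12 and 9 bases follow the D box. The 2 boxes searched were found together in 65.4% of all 370 annotated C/D snoRNA rows, and the ACA in 61.9% of all 420 H/ACA rows.

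In DANCR and SNHG3 both the snoRNA row and the host fell. SNORA26 had 21 and 23 reads in the PRMT9 shRNA libraries, against 41 and 47 reads in the control shRNA libraries, a log2 fold change of -1.14 ± 0.29 (SE; edgeR adjusted p = 0.00201). SNORA73B had 62 and 79 reads with the PRMT9 shRNA and 115 and 129 reads with the control shRNA, a log2 fold change of -0.94 ± 0.18 (SE; edgeR adjusted p = 1.06e-04). The groups were apart in both rows. RCC1, which overlaps SNHG3 on the same strand and is also among the protein-coding snoRNA hosts, fell by 0.61 on the log2 scale. Whether reads in the SNORA73B row came from SNHG3 or from RCC1 was not tested. SNORD6 had 29 and 26 reads with the PRMT9 shRNA and 50 and 46 reads with the control shRNA, and fell by 0.94 (SE 0.27; edgeR adjusted p = 0.00481), where its host TAF1D fell by 0.31. That call was lost with DESeq2 (adjusted p = 0.0649) and without the second PRMT9 shRNA library (0.0590).

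In ZFAS1 and EPB41L4A-AS1 the snoRNA rows fell while the host row was not called or rose. SNORD12B had 27 and 31 reads in the PRMT9 shRNA libraries, against 66 and 44 reads in the control shRNA libraries, a log2 fold change of -1.06 ± 0.27 (SE; edgeR adjusted p = 0.00190). SNORD12C had 7 and 4 reads with the PRMT9 shRNA and 15 and 11 reads with the control shRNA, a log2 fold change of -1.36 ± 0.55 (SE; edgeR adjusted p = 0.0349). ZFAS1 itself stood at 0.06 ± 0.05 (SE) and was not called.

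SNORA13 had 6 and 2 reads in the PRMT9 shRNA libraries, against 14 and 11 reads in the control shRNA libraries, a log2 fold change of -1.75 ± 0.61 (SE; edgeR adjusted p = 0.0167), while its host EPB41L4A-AS1 rose by 0.47. SNORD12C and SNORA13 passed the filter through the control libraries only, and each lost its call in 6 of 15 other settings. Without the second PRMT9 shRNA library the adjusted p was 0.233 for SNORD12C and 0.181 for SNORA13, without the first control library it was 0.141 and 0.0614, and with DESeq2 it was 0.211 and 0.133. The difference between a snoRNA row and its host was not tested.

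The 6 tested rows that were not called lay in SNHG17 (SNORA71A, SNORA71B and SNORA71C), SNHG12 (SNORD99), SNHG10 (SCARNA13) and SNHG25 (SNORD104). All but SNORA71C had values below 0, between -0.72 for SNORD99 and -0.15 for SNORD104. SNORA71C had 30 and 27 reads with the PRMT9 shRNA and 18 and 20 reads with the control shRNA, with a log2 fold change of 0.44 ± 0.34 (SE; edgeR adjusted p = 0.262), in a host that fell by 0.56.

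**Figure D3:**
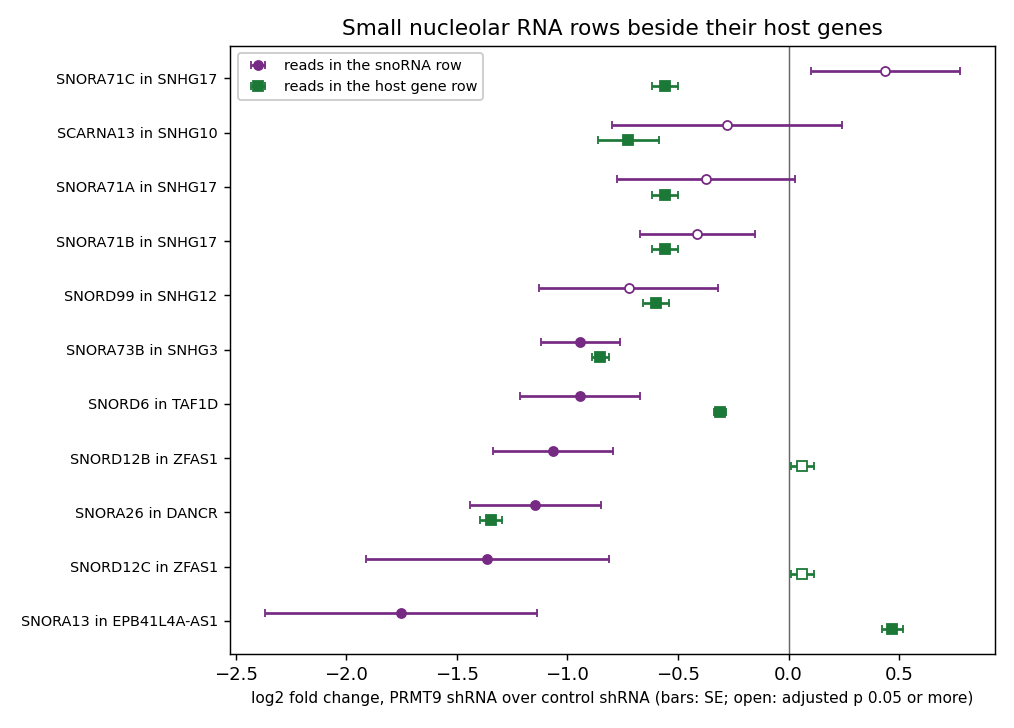
Log2 fold change (PRMT9 shRNA over control shRNA, bars are SE) of 11 tested snoRNA and Cajal body RNA rows as circles, each above its host gene as a square, with open symbols for an adjusted p of 0.05 or more. SNORA26 and SNORA73B lie near their hosts DANCR and SNHG3, whereas SNORD12B, SNORD12C and SNORA13 lie at -1.06, -1.36 and -1.75 beside hosts at 0.06, 0.06 and 0.47. SNORD12C, SNORA13 and SCARNA13 passed the filter through the control libraries only, which alone favours a fall. RCC1, which overlaps SNHG3 on the same strand, is not shown.

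Genes that overlap a host gene matter here, since the use of strand in the counting is not given in the sources used here and reads of 2 opposite genes then cannot be told apart. ZNFX1, opposite ZFAS1 with 249 shared exon bases, fell by 0.23 (SE 0.03; edgeR adjusted p = 5.98e-06) beside the uncalled ZFAS1. C11orf54, opposite TAF1D with 173 shared exon bases, rose by 0.40 (SE 0.06; edgeR adjusted p = 1.19e-05), against the fall of TAF1D. MED17 and CEP295, also opposite TAF1D, were not called (0.05 each). SIL1, opposite SNHG4 with 118 shared bases, rose by 0.19 (SE 0.07; edgeR adjusted p = 0.0234), and that call was lost without the second PRMT9 shRNA library (adjusted p = 0.221) and without the first control library (0.0786). FAM69B shares 1094 exon bases with the opposite SNHG7 and was not called (0.28 ± 0.17, SE). SEC14L1, on the same strand as SNHG20, rose by 0.21 (SE 0.06; edgeR adjusted p = 0.00255), a call lost with DESeq2 (adjusted p = 0.0587). TRNAU1AP, opposite SNHG12 with 8 shared bases, was not called (0.05). GAS5, DANCR, EPB41L4A-AS1, SNHG10 and SNHG19 had 0 windows of 50 bases shared with another gene's transcripts. The shared part was 14.2% for SNHG9, 11.3% for SNHG20, 11% for ZFAS1, 8.08% for SNHG3 and 7.87% for SNHG8. The snoRNAs of a host count as other genes here. SNHG9 shared windows only with SNORA78 and SNHG8 only with SNORA24, whereas those of SNHG20 and SNHG3 included SEC14L1 and RCC1. Windows were compared in the sense direction only, so they do not cover genes on the opposite strand. SNHG10 shares 391 exon bases with the opposite GLRX5, which averaged 25.9 CPM with the PRMT9 shRNA and 41.4 CPM with the control shRNA.

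Host genes with an annotated TOP-like start were found among rises and falls. In SNHG1 only 1 of 25 annotated transcripts has this start, in SNHG11 1 of 15 and in SNHG3 1 of 3. The split below therefore does not sort genes by the start used in these cells, which was not measured. Counts in this split are small, and over all genes tested 33.4% rose and 34.5% fell. Of 13 tested host genes with such a transcript, 3 rose (GAS5, SNHG8 and SNHG6) and 4 were not called. The 6 that fell were SNHG1, SNHG3, SNHG4, SNHG12, SNHG16 and TAF1D, with SNHG16 changing sign under upper-quartile scaling. The median log2 fold change of the 13 was -0.08. Of 10 without such a transcript, 2 rose (EPB41L4A-AS1 and SNHG14), 5 fell (DANCR, CCAR1, SNHG9, SNHG10 and SNHG17) and 3 were not called, with a median of -0.33. Genes of cytosolic ribosomal proteins, the classic TOP mRNAs, rose in 71 of 79 (89.9%, against 33.4% of all genes). They fell in 5 (6.33%, against 34.5% of all genes), with a median of 0.28. RPL12 averaged 2525 ± 8.9 CPM with the PRMT9 shRNA and 1882 ± 15 CPM with the control shRNA (SD, n = 2 each), a log2 fold change of 0.42. RPL28 and RPLP1 rose by 0.49 and 0.42.

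Among 14 regulators of TOP mRNAs, 0 rose and 10 fell. The 71.4% called is close to the 67.9% of all genes tested, of which 33.4% rose and 34.5% fell. LARP1, which binds the TOP tract, fell by 0.67 (edgeR adjusted p = 3.86e-15). MTOR, the kinase upstream of it, fell by 1.00 (edgeR adjusted p = 5.65e-15), and EIF4E, the cap-binding initiation factor, by 0.98 (edgeR adjusted p = 2.59e-14). These are RNA levels, and kinase activity and translation were not measured.

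Protein-coding genes that hold a snoRNA or Cajal body RNA row had more falls than rises. Of 199 tested, 63 rose (31.7%, against 33.4% of all genes) and 104 fell (52.3%, against 34.5%), and their median was -0.14 on the log2 scale. This set overlaps other groups given here. It holds many cytosolic ribosomal protein genes, which all rose except RPL39 (not called) and RPL17 (fell, at a mean of only 5.12 CPM). NOP56, NOP58 and DKC1 are in it too, as are RCC1, MATR3 and SEC14L1, which overlap SNHG3, SNHG4 and SNHG20 on the same strand. The 3 largest falls at 10 CPM or more were in CCT6A, a subunit of the CCT chaperonin (217 and 218 CPM with the PRMT9 shRNA, 529.7 and 544 CPM with the control shRNA; log2 fold change -1.30), SLC25A3, the mitochondrial phosphate carrier (348 CPM in each PRMT9 shRNA library, 773 and 774 CPM with the control shRNA; -1.15) and NDC1, a nuclear pore membrane protein (67.3 and 67.1 CPM with the PRMT9 shRNA, 145 and 150.2 CPM with the control shRNA; -1.13). The 3 largest rises at 10 CPM or more were in MAGED2 (0.83), ATP2B4, a calcium pump of the plasma membrane (0.60) and N4BP2L1 (0.59). Other long non-coding and antisense genes had more rises than falls. Of 1858 tested 519 rose (27.9%) and 239 fell (12.9%), with a median of 0.18, at a median level of 1.02 CPM, which every tested host gene but SNHG9 exceeded.

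Among the proteins that package and mature snoRNAs, counts are small and are to be read against the 34.5% of all tested genes that fell and the 33.4% that rose. Of 4 core proteins of box C/D particles, NOP56 (-0.68), NOP58 (-0.39) and SNU13 (-0.36) fell, and FBL, the methyltransferase, rose slightly (0.08 ± 0.02, SE; edgeR adjusted p = 0.00355). Of 4 core proteins of box H/ACA particles, DKC1, the pseudouridine synthase (-0.67), NHP2 (-0.52) and GAR1 (-0.62) fell, and NOP10 was not called (-0.07). NOP56 averaged 214 ± 2.4 CPM with the PRMT9 shRNA and 343 ± 5.7 CPM with the control shRNA, and DKC1 averaged 139 ± 1.5 CPM with the PRMT9 shRNA and 222 ± 2.7 CPM with the control shRNA (SD, n = 2 each). Of 10 assembly factors, 70.0% were called, close to the 67.9% of all genes. In all 6 fell, with NOLC1 at -0.61, RUVBL1 at -0.58 and NUFIP1 at -0.62, and 1, ZNHIT3, rose (0.29).

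Nonsense-mediated decay, the route by which the spliced exons of many hosts are known to be degraded, was covered by 19 factors of the pathway and of the exon junction complex. Of these 15 fell (78.9%, against 34.5% of all genes) and 3 rose (15.8%, against 33.4%). SMG5, a decay adaptor, fell by 0.63 (edgeR adjusted p = 8.09e-14), RNPS1 by 0.67 (8.48e-14) and MAGOHB, an exon junction subunit, by 1.02 (2.65e-11), whereas UPF2 (0.24), SMG6 (0.26) and PNRC2 (0.27) rose. The stability of the host transcripts was not measured, and the part of these factors in the host gene results was not tested.

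**Figure D4:**
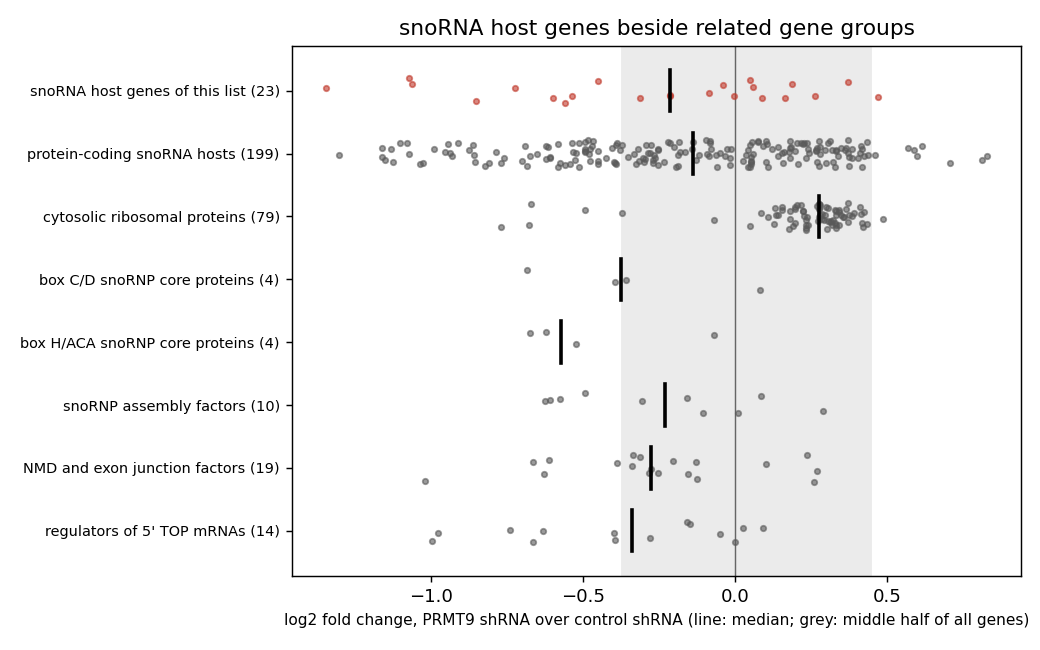
Log2 fold change (PRMT9 shRNA over control shRNA) of each tested gene in the host gene list and in 7 related groups, with the number of genes beside each name, a black line at the group's median and a grey band for the middle 50% of all genes tested. The snoRNA host genes have a median of -0.21 and spread from -1.35 to 0.47, while ribosomal protein genes gather around a median of 0.28. The protein-coding snoRNA hosts share genes with the ribosomal protein and core protein groups.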

How the data were processed

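Poly(A) RNA was sequenced from 2 PRMT9 shRNA and 2 control shRNA libraries. The authors deposited raw counts per Ensembl gene and RPKM values, which equal the count per exon length and library total times 1 factor per library (1.01 and 1.00 for PRMT9 shRNA, 1.01 and 0.979 for control shRNA). Trimmomatic 0.39, STAR 2.7.2a, SAMtools 1.10 and GRCh38 are named in the submitters' processing notes. Of the counting, the program, its use of strand, its treatment of multiply mapped reads and the annotation used are each not given in the sources used here.

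Counts were filtered with filterByExpr (minimum count 10), scaled by TMM and tested with the quasi-likelihood test of edgeR 4.0.16 (robust) in R 4.3.3. This left 15193 genes with 99.9% of the counts, and p-values were adjusted over all of them by Benjamini-Hochberg. Genes below 0.05 were called. Fold changes are PRMT9 shRNA over control shRNA, and SE is the log2 fold change divided by the root of F. The steps were tested on simulated data. Annotation and sequences came from GENCODE 29, whose identifiers matched 57388 of 57992 rows. Of the host genes, 22 of 28 had the same exon length there. The others were SNHG4, SNHG5, SNHG12, SNHG14, SNHG20 and SNHG23, whose shared bases and windows follow GENCODE 29 and not the annotation used for counting.

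Every host gene was named, as were up to 3 called genes of lowest adjusted p of each related list, the 3 largest rises and falls of protein-coding hosts, tested snoRNA rows and overlapping genes. Exceptions within a list were named after their values were seen. The members and lists were chosen with earlier results of these data known.

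Alternatives were other scalings, filters, DESeq2 1.42.0, limma 3.58.1 (voom, and log2 of the deposited RPKM plus 1 or 0.1), an adjusted p below 0.01, a replicate block and each library left out. Replicates of a group differed by more than sampling noise (chi-square per gene 1.60 for PRMT9 shRNA and 3.00 for control shRNA). Since nothing says that the libraries are separate cultures, p-values measure only the spread between these libraries.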

Additional observations from a re-analysis of the deposited data

How the results depend on the processing

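Over 16 alternatives, 5 host genes rose in each except with upper-quartile scaling (8) and with log2(RPKM + 1) without a filter on low values (3), and the number that fell lay between 9 and 12. Leaving out each library in turn gave 5 to 5 rises and 9 to 12 falls among host genes, and 4390 to 4915 rises and 4767 to 5053 falls among all genes. Apart from SNHG9, SNHG16, SNHG14 and SNHG6, every called host gene remained called under all alternatives. Upper-quartile scaling moved the median of all genes by 0.09 and turned the split of all calls to 5915 rises and 4440 falls, against 5067 and 5246. Under it SNHG16 stood at 0.0039 and SNHG5 at 0.087 (adjusted p = 0.0266), the only values that changed sign among genes called in either setting, and ZFAS1 (0.15) and SNHG15 (0.14) were called higher. DESeq2 gave 3990 rises and 4360 falls over all genes. The labels' replicate numbers did not pair the libraries (correlation of deviations -0.03 over 15193 genes), and a fit with the replicate number as a block gave 5 rises and 10 falls among host genes, and 5014 and 5229 among all genes. Over all named genes and rows, host genes included, 1158 of the values kept their side of the threshold. Of the others, 55 lost the call, 10 gained one and 2 changed sign with a call in either setting. The 1158 include values that changed sign without a call in either setting, as in SNHG5, SNHG7 and SNHG20. Low counts limit SNHG9 and the snoRNA rows, whose standard errors reach 0.61 on the log2 scale.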
